A study of Mus musculus with 4 samples.

Results

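The macrophage-rich spots of the Uox_KO kidney were the Visium spots with the highest summed level of C1qa, C1qb, C1qc and Laptm5. In each Uox_KO section, the UMIs of each of these 4 markers in a spot were divided by the non-mitochondrial UMIs of that spot, scaled to 10000, log1p-transformed and summed to a score, and the 5% of spots with the highest score were taken. This gave 261 spots, 132 in Uox_KO replicate 1 and 129 in replicate 2, of 5240 Uox_KO spots and 11130 spots in the series. The Uox_KO mice lacked exons 2 to 4 of the urate oxidase gene, with which rodents break down uric acid, and are labelled as hyperuricemia mice. The Control mice were wild type. There were 2 kidney sections of each genotype, from male mice on the C57BL/6J background, and the age of the mice is not given in the sources used here. A Visium spot is a small area of tissue that can hold several cells of different types or parts of them, so a macrophage-rich spot is not a macrophage, and fewer or more cells of a type cannot be told apart from less or more RNA per cell.

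Macrophages of the kidney lie in the interstitium between tubules and vessels, where they take up dying cells and debris, present antigen and secrete C1q, the recognition molecule of the classical complement pathway. C1qa, C1qb and C1qc encode its chains. Laptm5 encodes a lysosomal membrane protein of blood-derived cells. In injured kidneys, monocytes that carry the chemokine receptor Ccr2 enter from the blood and join the resident cells, and urate crystals are a known stimulus of macrophages.

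The macrophage-rich spots held 1823647 and 1961299 UMIs in the 2 Uox_KO sections, against 52073864 and 55269218 UMIs in the remaining spots. They were shallower, with a median of 11643 and 12021 UMIs per macrophage-rich spot against 17041.5 and 20054 UMIs per remaining spot. Transcripts of the mitochondrial genome made up 5.60% and 5.70% of their UMIs, against 14.6% and 17.7% in the remaining Uox_KO spots. In the Control sections the spots chosen by the same rule had 12.9% and 14.3%, against 13.04% and 14.0% in the remaining spots. Uox itself had 0 UMIs in all 4 sections, Control included, so its level does not check the genotype labels. Any 2 sections shared 1861 to 2539 spot barcodes, which name array positions, and 4 barcodes were macrophage-rich in both Uox_KO sections.

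The 4 markers chose the spots, so their levels are a description without a test. C1qa had 1200.3 and 1154 CPM (counts scaled by the total UMIs of the class, per 1e6) in macrophage-rich spots, against 188 and 124 CPM in remaining spots. C1qb had 1623 and 1707 CPM in macrophage-rich against 257 and 205 CPM in remaining spots, and C1qc 863 and 793 CPM in macrophage-rich against 119 and 83.0 CPM in remaining spots. Laptm5 had 593 and 599 CPM in macrophage-rich against 92.4 and 82.0 CPM in remaining spots. For each marker and section the macrophage-rich spots stood 6.30 to 9.55 times above the remaining ones. Every macrophage-rich spot held a UMI of each C1q chain, and a macrophage-rich spot held a median of 13 C1qa UMIs in either section, with 120 and 107 in the richest spot. The spots chosen by the same rule in Control had 70.9 and 63.5 CPM of C1qa, against 13.4 and 12.6 CPM in remaining Control spots. C1qa was thus lower in the chosen Control spots than in the remaining Uox_KO spots.

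**Figure D1:**
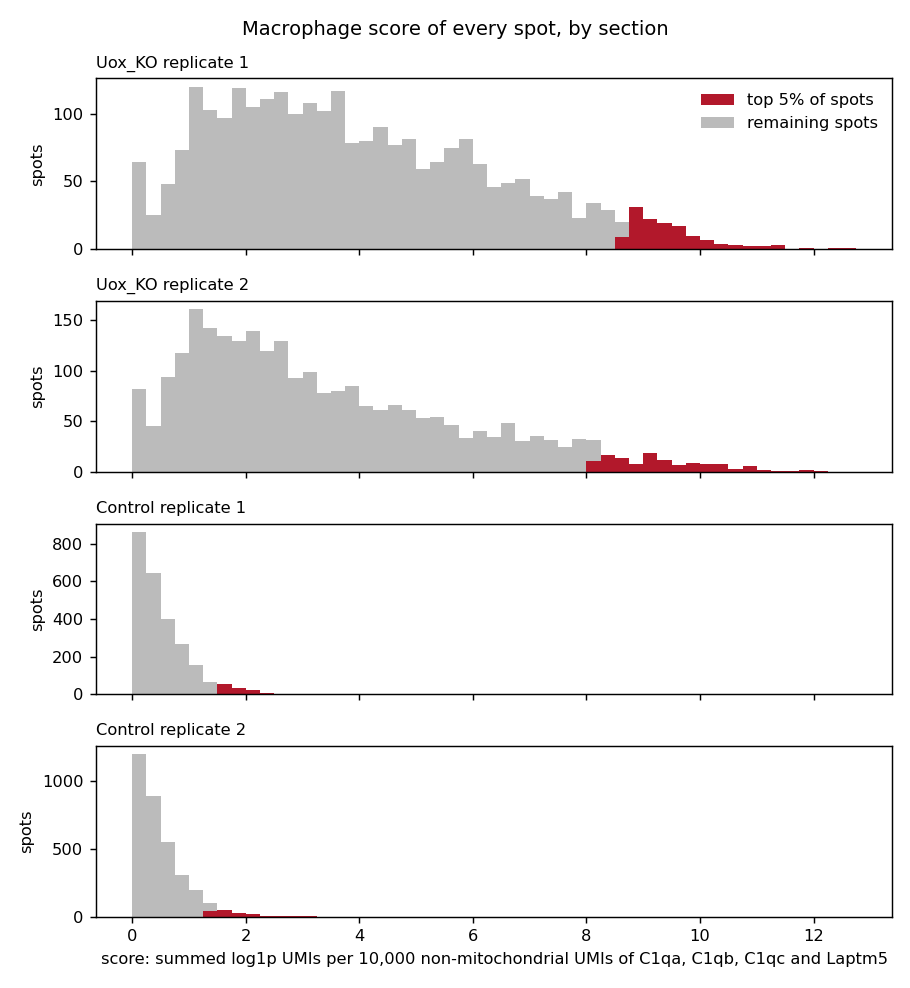
Number of spots (y axis) by macrophage score (x axis) in each section, with the top 5% of spots set apart from the remaining spots. The Uox_KO scores show no gap at the threshold and reach 12.6 and 12.1, and the highest Control scores are 4.19 and 3.91.

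The score was continuous at the threshold. The lowest macrophage-rich spot scored 8.68 in Uox_KO replicate 1 and 8.14 in replicate 2, and the highest remaining spot scored 8.67 and 8.13. Within 5% of the threshold lay 52 and 31 macrophage-rich spots and 41 and 53 remaining spots. A score of 0 was found in 2.38% and 3.09% of Uox_KO spots, against 23.4% and 29.9% of Control spots. Of the Control spots, 0 reached either Uox_KO threshold. When spots were instead chosen by Csf1r, Cd68, Tyrobp, Fcer1g, Aif1 and Ctss, the 4 markers could be tested, and all 4 were higher in the chosen spots. C1qc had 699 and 597 CPM there (on TMM-scaled totals) against 134 and 99.96 CPM in the other spots, a log2 fold change of 2.48 (edgeR adjusted p = 5.6e-07), and the log2 fold changes of the other 3 lay between 2.03 and 2.37. Of the macrophage-rich spots, 59.8% and 72.1% were also in the top 5% by those genes. Both gene sets mark the same cells in the same sections, so the rise of the 4 markers describes the spots and is not an independent finding.

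The C1q genes lie next to each other on chromosome 4 of GRCm38.p6, C1qb at chr4:136880126-136886200, C1qc at chr4:136889801-136892936 and C1qa at chr4:136895916-136898844, and Laptm5 lies at chr4:130912890-130936148. Promoter sequences are shown for a marker of the rule, C1qc, and for Mmp12 and Retnla of the largest rises below, chosen because their windows hold the motif described next. The windows of C1qb, Lyz2, Ccl6, Ccl9 and Cd68, which were high in the same spots, do not hold it. Each sequence is the 250 bases before the start site of the RefSeq promoter table of GRCm38.p6. For C1qc this site lies inside the gene extent given above, so that the window overlaps the extent. Positions are counted from that site, and capitals mark the core motif GAGGAAGT (or ACTTCCTC, its other strand) of PU.1, the factor that Spi1 encodes and that macrophages need to develop.
C1qc, chr4:136892915-136893164, minus strand: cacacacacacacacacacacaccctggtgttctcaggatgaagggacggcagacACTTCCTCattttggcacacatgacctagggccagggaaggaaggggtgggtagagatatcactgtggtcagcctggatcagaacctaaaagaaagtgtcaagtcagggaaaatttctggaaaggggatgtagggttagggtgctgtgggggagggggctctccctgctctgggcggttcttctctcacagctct
Mmp12, chr9:7344147-7344396, plus strand: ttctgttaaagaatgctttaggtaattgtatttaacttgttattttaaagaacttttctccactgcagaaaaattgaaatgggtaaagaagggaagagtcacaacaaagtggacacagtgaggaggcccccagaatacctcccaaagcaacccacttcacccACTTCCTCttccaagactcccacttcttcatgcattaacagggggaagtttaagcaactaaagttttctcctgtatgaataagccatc
Retnla, chr16:48842359-48842608, plus strand: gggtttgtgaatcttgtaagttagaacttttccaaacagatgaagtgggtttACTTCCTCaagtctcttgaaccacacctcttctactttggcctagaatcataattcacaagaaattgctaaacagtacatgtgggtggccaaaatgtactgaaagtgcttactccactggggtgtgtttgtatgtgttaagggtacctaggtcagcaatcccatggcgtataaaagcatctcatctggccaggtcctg
The motif lay 195, 88 and 198 bases before the start site. Searched on both strands of such windows, it was found for 1 of the 3 markers that have a window in the table, for 0 of 15 such genes of the macrophage core list, for 5 of 12 such genes of the largest rises (Bcl2a1b, Mmp12, Pf4, Retnla and Tlr1) and for 2.79% of all 27025 genes of the table. A gene with more than 1 window was counted if any of them held the motif. The largest rises come from these data and the motif was chosen with earlier results known, so these counts are a description and not a test. A match is a run of letters and not a measured binding site.

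With the 4 markers left out, 13520 genes with at least 50 UMIs in each whole Uox_KO section were tested with edgeR's quasi-likelihood test on the sums per section, with the section as a block. In macrophage-rich spots 3502 genes (25.9%) were higher and 3513 (26%) lower than in remaining spots at an adjusted p below 0.05, and 1698 (12.6%) and 1602 (11.8%) were so by more than 2-fold. The split depends on the scaling. The median gene had a log2 fold change of 0.02 with TMM scaling and 0.50 with total UMIs, which gave 6873 genes higher and 1762 lower. DESeq2 called 2099 higher and 2370 lower. From here on, levels are CPM on TMM-scaled totals, given for replicates 1 and 2 of Uox_KO, and calls are edgeR's. SE values are derived from the edgeR test and are not the spread between the sections. The ratio had the same sign in both sections for 83.8% of genes. Counts over the lists below are to be read against these shares.

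Rises and falls were ranked among genes past the threshold with the same sign in both sections. A mean of at least 20 CPM in the higher class was also required. The largest rise so ranked was that of Mmp12, the macrophage metalloelastase that cuts elastin. It had 36 and 59.2 CPM in macrophage-rich spots against 4.38 and 4.97 CPM in remaining spots (log2 fold change 3.33 ± 0.18 SE, edgeR adjusted p = 5.3e-10). Its UMIs were uneven among the spots: a UMI of Mmp12 was found in 29 of 132 and 37 of 129 macrophage-rich spots, and the 5 spots with the most held 48% and 48.9% of the sum. Lyz2, which encodes lysozyme of myeloid cells, had 2727 and 2623 CPM in macrophage-rich spots against 362 and 255 CPM in remaining spots (log2 fold change 3.14 ± 0.14) and was found in every macrophage-rich spot. The chemokine Ccl6 had 205 and 262 CPM in macrophage-rich spots against 30.1 and 28.9 CPM in remaining spots, and Ccl9 had 165 and 197 CPM in macrophage-rich spots against 28.4 and 21.9 CPM in remaining spots. Retnla, a secreted marker of alternatively activated mouse macrophages, had 69 and 93.3 CPM in macrophage-rich spots against 11.7 and 9.39 CPM in remaining spots. All 5 genes were higher in both sections, but Retnla rested on few spots, with 77.8% and 67.1% of its UMIs in 5 of them. The other genes among the 15 largest rises were Bcl2a1b (2.98), Clec4n (2.95), Tlr1 (2.81), Ms4a6d (2.77), Ptafr (2.77), Cd68 (2.77), Emilin2 (2.75), Ccr2 (2.75), Pf4 (2.72) and Msr1 (2.71), with log2 fold changes in brackets. They include a survival factor of the Bcl2 family (Bcl2a1b), pattern receptors (Clec4n, Tlr1), the receptor for platelet-activating factor (Ptafr) and a scavenger receptor (Msr1).

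**Figure D2:**
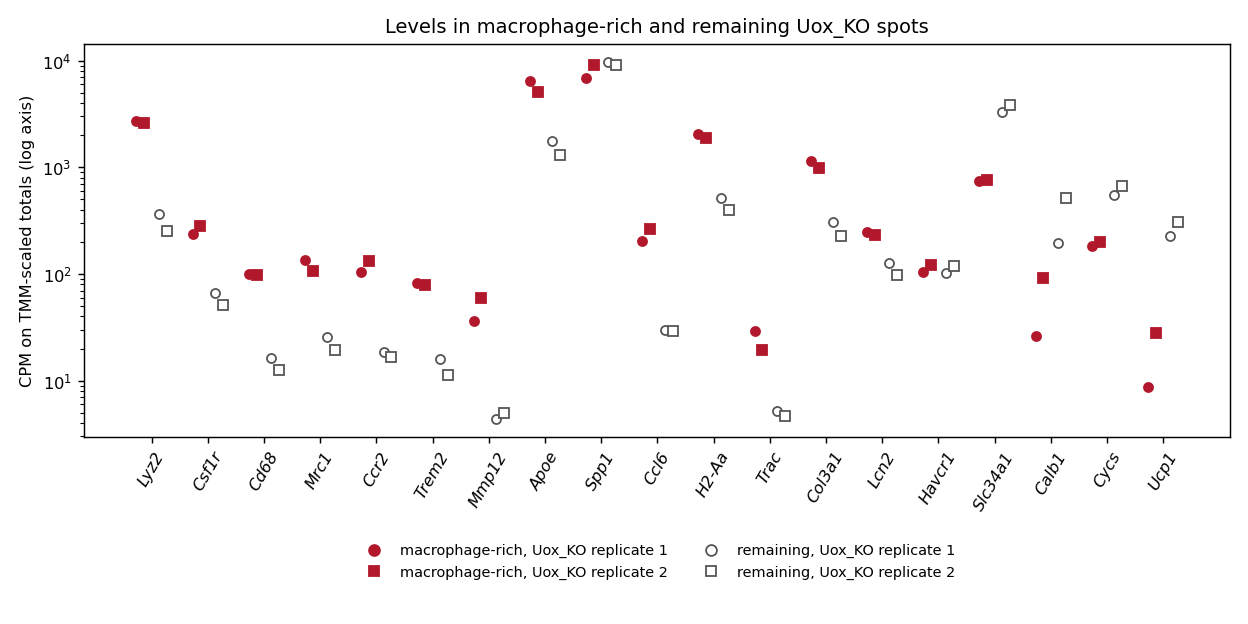
CPM on TMM-scaled totals (y axis, log) of named genes in macrophage-rich and remaining Uox_KO spots, with a point for each section. Genes of macrophages other than Spp1, of T cells and of matrix lie higher in macrophage-rich spots in both sections, and so does Lcn2. Slc34a1, Calb1, Cycs and Ucp1 lie lower, and the values of Havcr1 and of Spp1 overlap.

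Genes of the macrophage lineage outside the rule were high in the same spots. All 22 of 22 tested genes of the core list were higher in macrophage-rich spots, with a median log2 fold change of 2.29 against 0.02 over all genes tested. They come from the cells that the 4 markers select, so their rise describes the spots and is not an independent finding. Csf1r, the receptor of the macrophage growth factor, had 238 and 281 CPM in macrophage-rich spots against 66.9 and 50.7 CPM in remaining spots. Cd68, a lysosomal glycoprotein, had 99.2 and 97.6 CPM in macrophage-rich spots against 16.4 and 12.6 CPM in remaining spots, and Adgre1, which encodes the F4/80 antigen, had 128 and 98.9 CPM in macrophage-rich spots against 24.1 and 18 CPM in remaining spots. For these genes both sections were higher in macrophage-rich spots. The adaptor Tyrobp and the Fc receptor chain Fcer1g rose by 2.52 and 2.55 on the log2 scale, the integrin Itgam by 2.68 and Spi1 by 2.67. The smallest rises of the list were those of Cd14 (1.39), a receptor for bacterial lipopolysaccharide, and Sirpa (1.37), which binds the signal that protects cells from uptake.

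Of the genes of resident tissue macrophages, 11 of 15 tested were higher and 1 lower. Their median log2 fold change was 2.03. The mannose receptor Mrc1 had 135 and 106 CPM in macrophage-rich spots against 25.6 and 19.6 CPM in remaining spots (log2 fold change 2.41). Pf4 had 100.2 and 81.4 CPM in macrophage-rich spots against 15.6 and 11.9 CPM in remaining spots, and the scavenger receptor Stab1 had 299 and 236 CPM in macrophage-rich spots against 68.8 and 54.4 CPM in remaining spots. These 3 were higher in both sections. The fractalkine receptor Cx3cr1 rose by 2.03 on the log2 scale, Fcrls by 2.41, F13a1 by 2.50 and the growth factor Igf1 by 1.19. Lyve1 rose by 2.43, on only 5.75 and 9.38 CPM in macrophage-rich spots against 1.33 and 1.48 CPM in remaining spots. Gas6, a ligand of the receptors Axl and Mertk, was the gene that was lower (-0.41, but 0.06 with total UMIs). Maf, a transcription factor, did not pass (-0.14, and 0.34 with total UMIs). Timd4 and Vsig4 were under 50 UMIs in a section and were not tested.

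The genes listed for lipid-associated and scar macrophages did not move one way. Of 16 tested, 7 were higher and 6 lower (9 and 3 with total UMIs). Their median log2 fold change was -0.04, and 0.44 with total UMIs. Trem2, a lipid receptor, had 81.5 and 78.8 CPM in macrophage-rich spots against 16.1 and 11.4 CPM in remaining spots (log2 fold change 2.57) and was found in 79 of 132 and 71 of 129 macrophage-rich spots. The glycoprotein Gpnmb had 13.9 and 8.52 CPM in macrophage-rich spots against 2.27 and 1.79 CPM in remaining spots (2.45), and Apoe, the apolipoprotein, had 6487 and 5066 CPM in macrophage-rich spots against 1762 and 1311 CPM in remaining spots (1.92). The galectin Lgals3 and the protease Ctsb rose by 0.79 and 0.58. Spp1 did not separate the spots. It encodes osteopontin, which tubule cells make as well as macrophages, and had 6929 and 9067 CPM in macrophage-rich spots against 9755 and 9058 CPM in remaining spots (log2 fold change -0.25, adjusted p = 0.195, and 0.23 with total UMIs). Ctsd (0.15) and Ctsl (-0.22, 0.25 with total UMIs) did not pass either. Lower were genes of fatty acid uptake and storage, among them Cd36 at 123 and 89.9 CPM in macrophage-rich spots against 378 and 374 CPM in remaining spots (-1.84), Lpl (-0.96) and Plin2 (-0.81), and the tetraspanin Cd63 (-0.68). The lipase Lipa was lower (-0.38, but 0.10 with total UMIs), and Fabp5 was lower (-0.49) but had 1.09 when the spots richest in brown fat and urothelium genes were left out.

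Of 7 tested genes of osteoclasts and multinucleated giant cells, 5 were higher and 1 lower (5 and 0 with total UMIs). The collagen-degrading protease Ctsk had 57.5 and 60.9 CPM in macrophage-rich spots against 18.9 and 15.2 CPM in remaining spots, the gelatinase Mmp9 rose by 2.29 on the log2 scale, and Acp5 was lower (-0.73). The fusion genes Dcstamp and Ocstamp were not tested, for lack of UMIs. Genes of blood monocytes were higher in 7 of 8. Ccr2 had 105 and 132 CPM in macrophage-rich spots against 18.6 and 16.5 CPM in remaining spots (log2 fold change 2.75), Ms4a4c had 22.1 and 44.7 CPM in macrophage-rich spots against 4.91 and 5.47 CPM in remaining spots, and Ly6c2 had 15.3 and 24.3 CPM in macrophage-rich spots against 5.40 and 4.01 CPM in remaining spots. All 3 were higher in both sections, and S100a4 rose by 2.32. Hp, which encodes haptoglobin, was lower (-0.74), and had 1.32 without the fat and urothelium spots. All 11 of 11 tested dendritic cell genes were higher, with a median of 2.23. The integrin Itgax had 64.7 and 57.5 CPM in macrophage-rich spots against 12.2 and 9.59 CPM in remaining spots, the lectin Cd209a 36.9 and 39.6 CPM in macrophage-rich spots against 9.47 and 7.08 CPM in remaining spots, and the transcription factors Irf8 and Batf3 rose by 1.73 and 2.04. Ccl22 rose by 2.89 and was found in 20 of 132 and 8 of 129 macrophage-rich spots. Of the neutrophil list 2 of 4 tested genes were higher and 1 lower, and 5 of 6 mast cell genes had too few UMIs to be tested.

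Lymphocyte transcripts were higher in the same spots. All 14 of 14 tested T and NK cell genes rose, with a median log2 fold change of 2.22. Trac, the constant region of the T cell receptor alpha chain, had 29.2 and 19.2 CPM in macrophage-rich spots against 5.16 and 4.66 CPM in remaining spots, and that of the beta chain, Trbc2, had 37.9 and 32.4 CPM in macrophage-rich spots against 7.67 and 7.06 CPM in remaining spots. The CD3 chains Cd3d and Cd3g rose by 2.17 and 2.19, and the cytotoxic granule gene Nkg7 by 2.24. Trac was found in 41 of 132 and 34 of 129 macrophage-rich spots. B and plasma cell genes went apart between the sections. Ighm had 59.9 and 52.8 CPM in macrophage-rich spots against 16 and 11.5 CPM in remaining spots and Cd79b 12.5 and 12.4 CPM in macrophage-rich spots against 3.91 and 3.12 CPM in remaining spots, higher in both. Igha, the heavy chain of IgA, had 136 CPM in macrophage-rich against 22 CPM in remaining spots in replicate 1 and 1.70 CPM in macrophage-rich against 16.6 CPM in remaining spots in replicate 2. Igha was called higher (log2 1.48, edgeR adjusted p = 0.0217), and without replicate 1 it had -3.26. Jchain, which joins IgA molecules, had 24.9 CPM in macrophage-rich against 4.82 CPM in remaining spots in replicate 1 and 1.28 CPM in macrophage-rich against 3.44 CPM in remaining spots in replicate 2, and -1.40 without replicate 1. In replicate 1, 5 spots held 78.4% of the Igha UMIs of the macrophage-rich spots.

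Genes of antigen presentation and chemotaxis rose together. All 9 of 9 tested MHC class II genes were higher, with a median log2 fold change of 1.74. H2-Aa had 2066 and 1899 CPM in macrophage-rich spots against 520.1 and 398 CPM in remaining spots, and H2-Eb1 had 1669.7 and 1654 CPM in macrophage-rich spots against 400.4 and 321 CPM in remaining spots. Of 16 tested chemokines, 15 were higher and 0 lower. Ccl8 had 257 and 138 CPM in macrophage-rich spots against 43.4 and 19.4 CPM in remaining spots, and Ccl5, which draws T cells, had 102 and 97.6 CPM in macrophage-rich spots against 25.8 and 20.3 CPM in remaining spots. Cxcl9, which interferon gamma induces, had 68.6 and 46.9 CPM in macrophage-rich spots against 10.6 and 9.44 CPM in remaining spots. Both sections were higher for these 3, though 5 spots held 72.7% and 64.5% of the Cxcl9 UMIs. All 8 of 8 tested receptors of chemokines and complement peptides were higher, among them Ccr1 (2.64), C5ar1 (2.41) and C3ar1 (2.41). Of the colony-stimulating factor genes, Csf1, the growth factor of macrophages, had 62.8 and 52.4 CPM in macrophage-rich spots against 30.3 and 25 CPM in remaining spots, and the receptor chains Csf2ra and Csf2rb rose by 1.84 and 2.29. Il34, the other ligand of Csf1r, did not pass, with 85.3 and 97.2 CPM in macrophage-rich spots against 85.9 and 70.7 CPM in remaining spots.

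Of 12 tested receptors and bridging proteins for the uptake of cells and particles, 10 rose, among them the integrin chain Itgb2 (2.32), the Fc receptor Fcgr4 (2.19) and Axl (1.68). Lysosome genes were mixed, with 9 of 17 higher and 4 lower (13 and 2 with total UMIs). The protease Ctsc had 312 and 305 CPM in macrophage-rich spots against 69.7 and 63 CPM in remaining spots, and the hexosaminidase Hexa had 441 and 374 CPM in macrophage-rich spots against 189.8 and 159 CPM in remaining spots. Lower were the membrane protein Lamp2 at 470.3 and 473 CPM in macrophage-rich spots against 811 and 838 CPM in remaining spots and the galactosidase Glb1 (-1.21). Of the other complement genes 9 of 11 were higher and 2 lower. Properdin, Cfp, had 116 and 127 CPM in macrophage-rich spots against 21.6 and 17.5 CPM in remaining spots, and the C1 protease C1s1 had 165 and 147 CPM in macrophage-rich spots against 43.6 and 36.1 CPM in remaining spots. All 17 of 17 tested genes of the type I interferon response were higher, with a median of 1.47. Irf7, a transcription factor of that response, had 101 and 136 CPM in macrophage-rich spots against 37.1 and 35.8 CPM in remaining spots, and Ifitm3 and Bst2, which restrict viruses, rose by 1.76 and 1.52. All 13 of 13 tested genes of the interferon gamma response were higher (median 1.34), among them the immunoproteasome subunit Psmb8 at 147 and 162 CPM in macrophage-rich spots against 56.8 and 53.4 CPM in remaining spots and the peptide transporter Tap1 (1.34).

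Of 15 tested inflammasome and cytokine genes, 14 were higher and 0 lower. Their median log2 fold change was 1.65. Il1b, a cytokine that inflammasomes activate, had 22.5 and 32 CPM in macrophage-rich spots against 5.27 and 5.10 CPM in remaining spots, and Gsdmd, which forms the pore for its release, had 28.3 and 46 CPM in macrophage-rich spots against 10.6 and 8.87 CPM in remaining spots. Tlr2 rose by 1.42. Nlrp3, Tnf, Il6 and Il1a were under 50 UMIs in a section and were not tested. Of 8 iron genes 2 were higher and 4 lower (4 and 2 with total UMIs), and their median log2 fold change was -0.20 with TMM and 0.28 with total UMIs. Slc11a1, the metal transporter of phagosomes, had 38.4 and 40.1 CPM in macrophage-rich spots against 7.42 and 5.56 CPM in remaining spots, and the transferrin receptor Tfrc had 23.5 and 22.6 CPM in macrophage-rich spots against 59 and 71.1 CPM in remaining spots. Of 10 purine and urate genes 3 were higher and 5 lower (4 and 3 with total UMIs), and their median was -0.34 with TMM and 0.14 with total UMIs. Gda, which deaminates guanine, had 53.7 and 43.5 CPM in macrophage-rich spots against 21.1 and 19.9 CPM in remaining spots, and Ada, which deaminates adenosine, rose by 2.16. The urate transporter Abcg2 had 119 and 98.4 CPM in macrophage-rich spots against 356 and 361 CPM in remaining spots, and the transporter Slc17a1 of the proximal tubule was lower (-2.13).

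The spots were rich in matrix transcripts. All 19 of 19 tested fibroblast and matrix genes were higher, with a median log2 fold change of 1.53. The collagen Col3a1 had 1158 and 978 CPM in macrophage-rich spots against 307 and 226 CPM in remaining spots (log2 fold change 2.02), fibronectin Fn1 had 639 and 641 CPM in macrophage-rich spots against 189 and 126 CPM in remaining spots, and Thy1, a surface marker of fibroblasts and T cells, had 162 and 105 CPM in macrophage-rich spots against 43.7 and 28.5 CPM in remaining spots. All 16 of 16 tested TGF-beta and profibrotic genes were higher. Tgfbi, a matrix protein that TGF-beta induces, had 214 and 234 CPM in macrophage-rich spots against 58.5 and 49.9 CPM in remaining spots, the protease inhibitor Timp1 had 337 and 395 CPM in macrophage-rich spots against 111 and 105 CPM in remaining spots, and Ltbp2, of the family that binds latent TGF-beta, rose by 1.75. Each of these genes was higher in both sections. Smooth muscle and pericyte genes were higher in 5 of 8, with Acta2 at 377 and 272 CPM in macrophage-rich spots against 175 and 98.9 CPM in remaining spots and Tagln at log2 1.65. Endothelial genes were higher in 4 of 10 and lower in 0, with a median of 0.16, led by Eng (0.94) and Plvap (0.69), and 8 of 10 were higher with total UMIs.

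Most tubule genes were lower, with an exception for some genes of injury. Havcr1, which encodes the proximal tubule injury marker KIM-1, had 104 and 121 CPM in macrophage-rich spots against 102 and 118 CPM in remaining spots (log2 fold change 0.03, edgeR adjusted p = 0.837). Its call depends on the setting, with 0.50 (adjusted p = 4.5e-05) on total UMIs and -0.60 (adjusted p = 5.6e-05) for the top 2% of spots. Lcn2, an injury marker of distal segments, had 246 and 233 CPM in macrophage-rich spots against 127 and 98 CPM in remaining spots (log2 fold change 1.10), the adhesion molecule Vcam1 had 209 and 268 CPM in macrophage-rich spots against 123 and 98.1 CPM in remaining spots, and the hyaluronan receptor Cd44 had 72.9 and 101 CPM in macrophage-rich spots against 32.2 and 24.2 CPM in remaining spots. In all, 10 of 16 tested injury genes were higher and 2 lower (14 and 0 with total UMIs). The list median was 0.54 on the log2 scale. Control spots chosen by the same rule gave a list median of 0.53. Of 13 injury genes tested there, edgeR called 7 as rises and 2 as falls. For the difference between genotypes, 2 of 13 passed as larger in Uox_KO and 1 as smaller (list median -0.02). By these medians the injury list rose about equally in both genotypes. Vcam1 and Cd44 are also made by cells other than tubule cells.

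All 12 of 12 tested genes of the S1 and S2 segments of the proximal tubule were lower. Their median log2 fold change was -2.19. The phosphate transporter Slc34a1 had 744 and 767 CPM in macrophage-rich spots against 3329 and 3863 CPM in remaining spots, the endocytic receptor megalin, Lrp2, had 125 and 109 CPM in macrophage-rich spots against 574 and 608 CPM in remaining spots, and the organic anion transporter Slc22a6 and the urate transporter Slc22a12 had -2.53 and -2.32 on the log2 scale. In the S3 segment 8 of 8 were lower, among them Acy3 at 405 and 275 CPM in macrophage-rich spots against 1440.5 and 1429 CPM in remaining spots. More distal segments were lower as well. This held for 7 of 8 thick limb genes (Egf, -2.22, and the salt transporter Slc12a1, -0.79) and 5 of 6 genes of the distal and connecting tubule. The calcium-binding Calb1 had 26.4 and 91.2 CPM in macrophage-rich spots against 195 and 518 CPM in remaining spots, and the salt transporter Slc12a3 had -2.36. In the collecting duct 7 of 7 genes were lower, with the water channel Aqp2 at 37.9 and 46.5 CPM in macrophage-rich spots against 111 and 164 CPM in remaining spots and Aqp3 at log2 -2.10.

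Beside the low mitochondrial share given above, all 15 of 15 tested nuclear genes of the respiratory chain were lower, with a median of -1.32. Cytochrome c, Cycs, had 182 and 198 CPM in macrophage-rich spots against 555 and 675 CPM in remaining spots, and the cytochrome oxidase subunit Cox5a had 286 and 256 CPM in macrophage-rich spots against 712 and 812 CPM in remaining spots. The part of the shallower depth of the spots in this result was not tested. Of 11 tested cell cycle genes 10 were higher. The proliferation marker Mki67 had 43.6 and 42.6 CPM in macrophage-rich spots against 16.8 and 17 CPM in remaining spots, Birc5, which acts in cell division, had 29.2 and 35.4 CPM in macrophage-rich spots against 11.8 and 13 CPM in remaining spots, and the replication gene Mcm5 rose by 1.57. In both sections these were higher in macrophage-rich spots. Malat1 and Neat1, nuclear RNAs used as signs of RNA quality, passed in neither direction, and both were higher with total UMIs.

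The 15 largest falls were led by genes of fat. Cidea, a lipid droplet gene of brown fat, had 11 and 14.9 CPM in macrophage-rich spots against 179 and 262 CPM in remaining spots, and Ucp1, which uncouples mitochondria in brown fat, had 8.63 and 28.1 CPM in macrophage-rich spots against 227 and 309 CPM in remaining spots. Cox8b, Thrsp, Cpt1b and Fabp4 fell by 3.80, 3.37, 3.15 and 2.75 on the log2 scale. Without the spots richest in fat and urothelium genes, 1 of 6 tested adipocyte genes was lower, with a median of -0.18, in place of 6 of 6 with a median of -2.49. The urothelium list then had 3 tested genes, of which 1 was higher, in place of 7 of 8 lower. The S1 and S2 list and the respiratory list still had 12 of 12 and 15 of 15 genes lower, with medians of -2.19 and -1.23. Other large falls were genes of proximal tubule metabolism. Pck1, an enzyme of glucose synthesis, had 334 and 337 CPM in macrophage-rich spots against 2059 and 2510.3 CPM in remaining spots, G6pc, another one, had 27.3 and 43.5 CPM in macrophage-rich spots against 218 and 257 CPM in remaining spots, and the fatty acid hydroxylase Cyp4a14 had 222 and 182 CPM in macrophage-rich spots against 1313 and 1299 CPM in remaining spots.

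**Figure D3:**
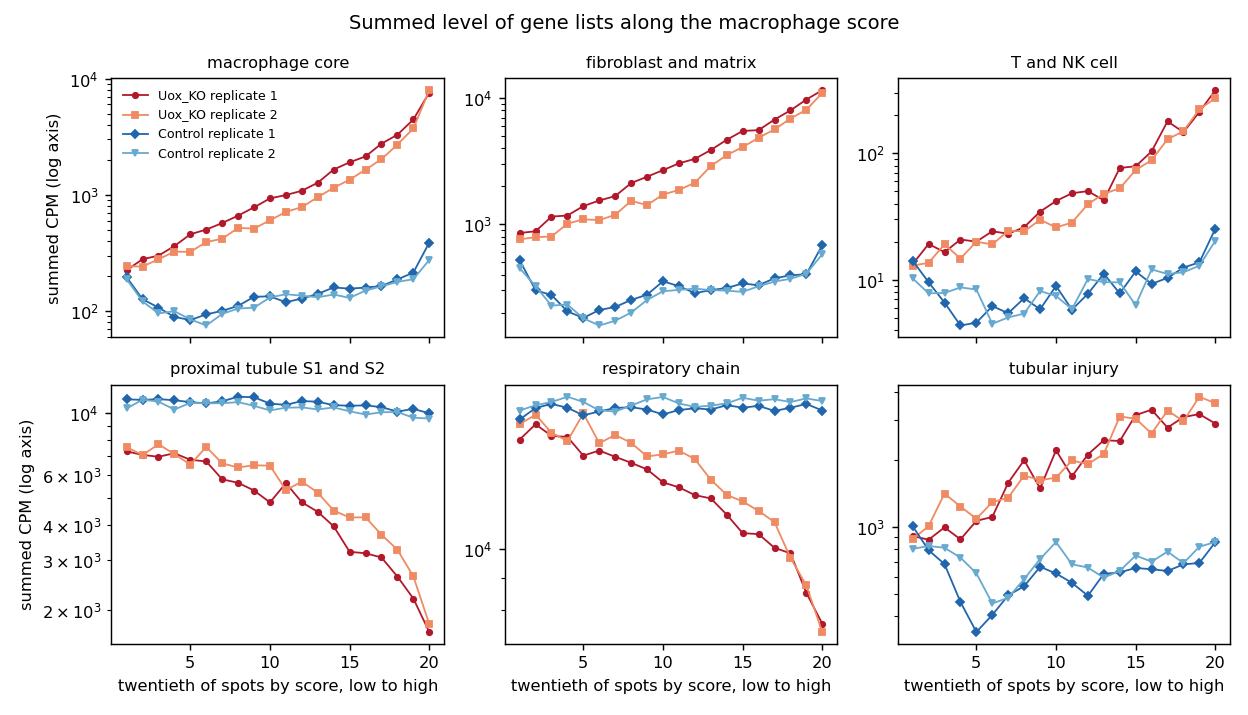
Summed CPM on total UMIs (y axis, log) of gene lists in 20 equal groups of spots ordered by macrophage score, low to high (x axis), in each section. In Uox_KO the macrophage core, matrix and T cell lists are far higher and the proximal tubule and respiratory lists lower at the high end than at the low end, and in Control the courses are flatter.

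The pattern was graded over all Uox_KO spots. In 20 equal groups of spots ordered by score, the summed level of the macrophage core list (CPM on total UMIs) was 224 and 243 in the lowest group, 931 and 603 in the tenth and 7568 and 7934 in the highest. The matrix list had 855 and 762 CPM in the lowest group, 2686 and 1722 CPM in the tenth and 11520 and 10958 CPM in the highest, and the T and NK cell list 13.3 and 12.9, 42.0 and 26.0, and 316 and 273 CPM. Both were highest where the score was highest. The S1 and S2 list ran the other way, with 7291 and 7547 CPM in the lowest group, 4807 and 6485 CPM in the tenth and 1669 and 1781 CPM in the highest. The injury list was higher in the group next to the top, at 3199.7 and 3827 CPM, than in the top group, at 2902 and 3579 CPM. In Control the S1 and S2 list had 11147 and 10348 CPM in the lowest group and 9947 and 9533 CPM in the highest. Of the genes outside the rule, those whose log1p level followed the score most closely over the 2650 and 2590 Uox_KO spots were Lyz2 (the lower Pearson r of the 2 sections was 0.743), Mgp (0.737), Apoe (0.734), H2-Eb1 (0.732), Cd74 (0.731), H2-Aa (0.728), Bgn (0.717), H2-Ab1 (0.716), Actb (0.682) and Col1a2 (0.679). Spots of a section share a library and differ in depth, so these values are descriptions.

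**Figure D4:**
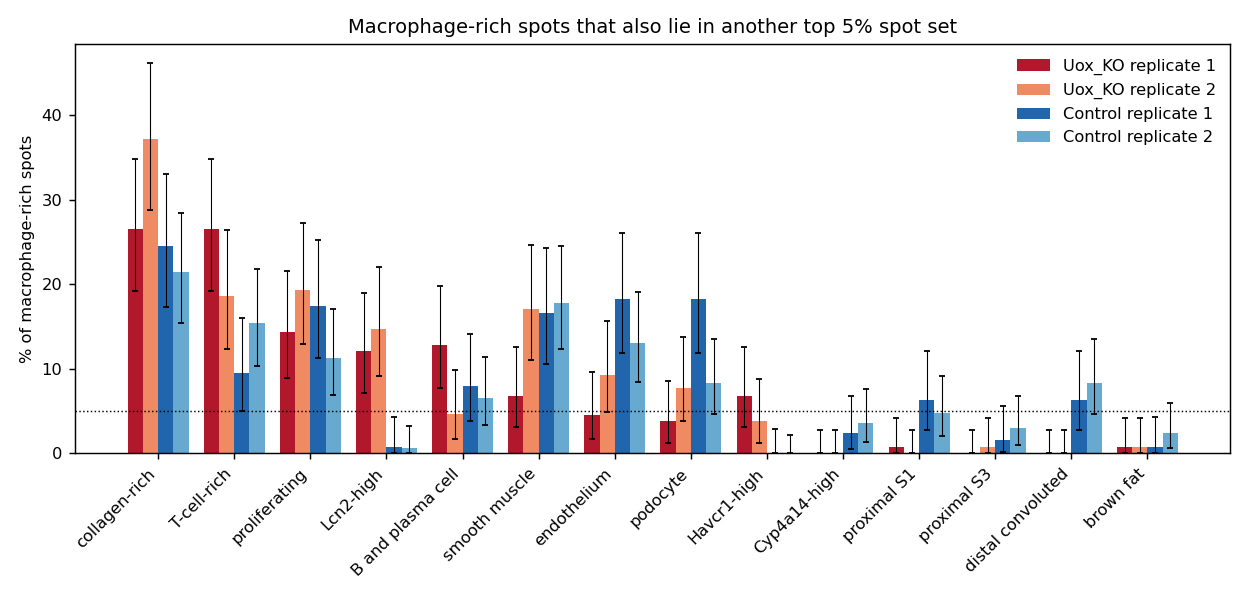
Percent of the macrophage-rich spots (y axis) that were also in the top 5% by other genes, in each section (for Control, the spots chosen by the same rule), with exact 95% binomial intervals that cover counting only and a dotted line at 5%. In Uox_KO 26.5% and 37.2% were collagen-rich and none was Cyp4a14-high.

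Other spot sets, each the top 5% of a section by its own genes (or all spots with a UMI of them, where fewer), showed what the macrophage-rich spots also held. Of the macrophage-rich Uox_KO spots, 26.5% (95% interval 19.2% to 34.9%) and 37.2% (28.9% to 46.2%) were collagen-rich (Col1a1, Col1a2, Col3a1), 26.5% and 18.6% T-cell-rich (Cd3d, Cd3e, Cd3g, Trbc2), 14.4% and 19.4% proliferating (Mki67, Top2a, Cdk1, Birc5) and 12.1% and 14.7% Lcn2-high. In Uox_KO the sets are of equal size, so these are also the shares of each set. Only 9 and 5 macrophage-rich spots, 6.82% and 3.88%, were Havcr1-high, near the 5% of all spots that the set holds. Of 132 and 129 macrophage-rich spots, 0 and 0 were Cyp4a14-high or in the distal convoluted tubule set, which allows up to 2.76% and 2.82% by the exact interval. The brown fat set took 1 macrophage-rich spot in each section. In Control, spots chosen by the same rule were collagen-rich in 24.6% and 21.4%. The endothelial set held 4.55% and 9.30% of the macrophage-rich spots of Uox_KO, and 18.3% and 13.1% of the spots so chosen in Control. In none of the 18 other sets were 28.0% and 20.2% of macrophage-rich Uox_KO spots, against 40.2% and 41.4% of remaining spots.

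The macrophage-rich spots differed among themselves. Those that were collagen-rich and not Havcr1-high (32 and 47 spots) had a summed T and NK cell level of 329 and 246 CPM on total UMIs, those in neither set (91 and 77 spots) 346 and 318 CPM, and those that were Havcr1-high and not collagen-rich (6 and 4 spots) 96.9 and 68.3 CPM. The T and NK cell level was thus lowest in the Havcr1-high ones, which held 113465 and 117097 UMIs. For the lipid-associated list the Havcr1-high spots were the highest, with 31983 and 34057 CPM, against 20450 and 23016 CPM in the collagen-rich ones and 21249 and 23996 CPM in neither. These are sums over few spots and were not tested. In such a sum abundant genes weigh most, among them Spp1, which tubule cells make as well as macrophages. The lipid-associated level is therefore not read as a state of the macrophages.

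**Figure D5:**
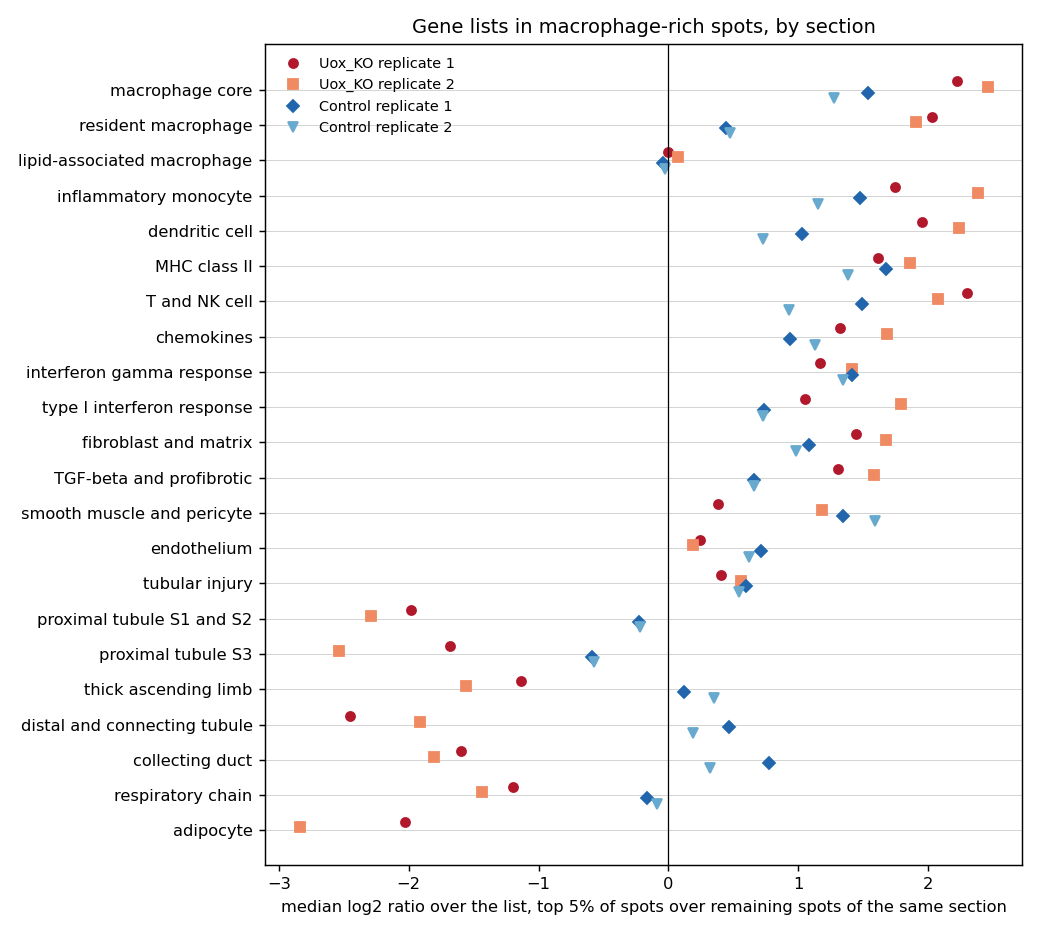
Median log2 ratio of the top 5% of spots over the remaining spots (x axis) for gene lists (y axis), with a point for each section of Uox_KO and Control. Macrophage core, T cell and matrix lists lie right of 0 in all 4 sections, and the S1 and S2 list lies further left of 0 in the Uox_KO sections than in the Control sections.

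The same rule in Control gave a background. The spots so chosen, 126 and 168, differed from remaining Control spots at 1726 genes higher (12.9%) and 1474 lower (11%) of 13340, and by more than 2-fold at 539 (4.04%) and 22 (0.165%). The counts were 360 and 29 without Control replicate 1, 716 and 197 without Control replicate 2, 630 and 607 with DESeq2, and 2646 and 621 with total UMIs. Of the macrophage core list 20 of 21 were higher there (median log2 fold change 1.51), as were 13 of 13 interferon gamma genes (1.32) and 16 of 16 matrix genes (1.01). Collecting duct genes were higher in 7 of 7 (0.56) and endothelial genes in 10 of 10 (0.72), and S1 and S2 genes had a median of -0.24.

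The interaction of spot class and genotype tested whether the 2 contrasts differed. Of 12727 genes, 1211 (9.52%) had a larger signed log2 fold change in Uox_KO and 2473 (19.4%) a smaller one, which can be a stronger fall. The split turned to 3385 larger and 1491 smaller with total UMIs. DESeq2 called 518 larger and 1592 smaller, and edgeR called 699 larger without Control replicate 1 and 547 without Control replicate 2. The largest positive difference was that of Mmp12, with 32.5 and 52.7 CPM in macrophage-rich against 3.87 and 4.39 CPM in remaining Uox_KO spots, and 3.38 and 2.28 CPM in chosen against 1.56 and 1.29 CPM in remaining Control spots (log2 difference 2.38 ± 0.34 SE, edgeR adjusted p = 7.9e-05). Ccl6 had 185 and 233 CPM in macrophage-rich against 26.6 and 25.5 CPM in remaining Uox_KO spots, and 9.53 and 9.63 CPM in chosen against 4.90 and 4.66 CPM in remaining Control spots (2.00). For both, the chosen Control spots were lower than the macrophage-rich Uox_KO spots and nearer to their own remaining spots. At such low levels the Control ratio of Mmp12 rests on few UMIs. The other large positive differences were those of Rassf2 (2.20), the thromboxane synthase Tbxas1 (2.05), Cd83, a marker of activated dendritic cells (1.97), Irf5, a transcription factor of inflammatory macrophages (1.92), Frzb, a secreted inhibitor of Wnt signalling (1.90), and Cfp (1.85). Of the macrophage core list 17 of 21 genes had a larger contrast in Uox_KO, among them Csf1r (1.55), Lyz2 (1.34) and Cd68 (1.09), and Mrc1 of the resident list had 1.65. The rule chose less marker-rich spots in Control: a chosen spot held a median of 7 to 20 UMIs of each marker in Uox_KO and of 1 to 2 in Control. Of the chosen spots, 59.8% and 72.1% in Uox_KO and 36.5% and 22.0% in Control were also in the top 5% by the other macrophage genes. The part of this in the difference was not tested.

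Of 13 genes of the interferon gamma response, 0 had a larger contrast in Uox_KO by edgeR and 2 a smaller one, and at an unadjusted p below 0.05 there were 0 and 4. DESeq2 called 0 either way. With so few genes, and 9.52% larger and 19.4% smaller over all genes, these counts are not read as a result about the list. Of 10 tested chemokines 6 had a larger contrast in Uox_KO and 2 a smaller one by edgeR, and 5 and 0 by DESeq2. The 2 smaller ones were those of Cxcl10 and Cxcl9. Cxcl10 had 19.9 and 45.1 CPM in macrophage-rich against 16.2 and 15.5 CPM in remaining Uox_KO spots, and 15.1 and 34.2 CPM in chosen against 4.24 and 2.53 CPM in remaining Control spots (log2 difference -1.89, edgeR adjusted p = 0.00486), and Cxcl9 had a log2 difference of -0.88. Neither passed without Control replicate 2 or with DESeq2. For Cxcl10 the remaining spots held more in Uox_KO than in Control. Of 9 MHC class II genes 3 had a larger contrast in Uox_KO and 1 a smaller one by edgeR (median 0.31), and 2 and 1 by DESeq2. In Control alone 8 of the 9 were higher in the chosen spots (median 1.51). Cd74, the MHC class II chaperone, did not pass for the difference (0.17, edgeR adjusted p = 0.404). The signed log2 fold change was lower in Uox_KO for 12 of 12 S1 and S2 genes (Slc34a1, -1.99) and 7 of 7 collecting duct genes (Aqp2, -2.27). It was also lower for 15 of 15 respiratory genes (Cycs, -1.46) and Spp1 (-0.65). The S1 and S2 genes thus fell more in Uox_KO, with a median of -2.19 against -0.24 in Control. The respiratory median was -1.32 against -0.15 in Control, and the collecting duct median -1.70 against 0.56. The largest negative differences were led by fat genes, among them Thrsp (-3.91), the adipokine Retn (-3.80) and Fabp4 (-3.19). Fabp4 had 139 and 191 CPM in macrophage-rich against 813 and 1424 CPM in remaining Uox_KO spots, and 89.2 and 108 CPM in chosen against 60.5 and 83.7 CPM in remaining Control spots, so the remaining Uox_KO spots were the class that stood out.

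Set against the collagen-rich Uox_KO spots, with shared spots and the marker genes of both sets left out, macrophage-rich spots differed at 200 of 13513 genes higher (1.48%) and 116 lower (0.858%), and by more than 2-fold at 87 (0.644%) and 48 (0.355%). Mmp12 had 43.3 and 47.3 CPM in macrophage-rich spots against 16.7 and 3.47 CPM in collagen-rich spots (log2 fold change 2.21, edgeR adjusted p = 1.8e-06), Cxcl9 had 106 and 65 CPM in macrophage-rich spots against 13.8 and 24.3 CPM in collagen-rich spots (2.12), and Retnla had 102 and 81.1 CPM in macrophage-rich spots against 31.5 and 12.2 CPM in collagen-rich spots (2.10). All 3 were higher than in collagen-rich spots in both sections, though few macrophage-rich spots held most of the Cxcl9 and Retnla UMIs, as given above. Lilra5 (1.90), Tgtp2 (1.89), Milr1 (1.87), Scimp (1.76) and Tlr7 (1.71) followed, of which Tlr7 senses RNA and Tgtp2 is an interferon-induced GTPase. Of the macrophage core list 20 of 22 were higher (median 1.04). Of 14 T and NK cell genes 0 passed by edgeR (median 0.52), 3 had an unadjusted p below 0.05, and DESeq2 called 0. Of 11 cell cycle, 15 inflammasome and cytokine and 7 giant cell genes 0, 0 and 0 passed by edgeR. Their medians were -0.04, 0.43 and 0.18. At an unadjusted p below 0.05 there were 2, 5 and 0, and DESeq2 called 0 in each list. Of 16 injury genes 1 was higher and 3 were lower (median -0.03). Lower were 11 of 16 matrix genes, among them the proteoglycan Lum at 73.3 and 47.3 CPM in macrophage-rich spots against 177 and 186 CPM in collagen-rich spots. Other lower genes were the smooth muscle myosin Myh11 (-1.67), the secreted Wnt modulator Sfrp4 (-2.65) and the urothelial Upk3a (-2.06). Of 12 S1 and S2 genes and 15 respiratory genes 0 and 0 passed by edgeR, with 2 and 0 at an unadjusted p below 0.05 and 0 and 0 by DESeq2. DESeq2 called only 22 genes higher and 14 lower in this comparison, and with the top 2% of spots edgeR called 0 genes, with 869 at an unadjusted p below 0.05.

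Set against the Havcr1-high Uox_KO spots in the same way, 3088 of 13519 genes (22.8%) were higher and 2763 (20.4%) lower, and 1910 (14.1%) and 834 (6.17%) by more than 2-fold. With total UMIs the counts were 4765 higher and 1484 lower, and with DESeq2 1213 and 1064. The macrophage core list was higher in 21 of 22 (median log2 1.98), T and NK cell genes in 14 of 14 (2.57) and matrix genes in 19 of 19 (1.64). Retnla had 59.2 and 106 CPM in macrophage-rich spots against 10.8 and 0.291 CPM in Havcr1-high spots, and F13a1, a coagulation factor that resident macrophages express, had 19.9 and 20.8 CPM in macrophage-rich spots against 2.03 and 1.16 CPM in Havcr1-high spots. Cpxm2 had 62.1 and 41.7 CPM in macrophage-rich spots against 2.37 and 2.04 CPM in Havcr1-high spots, the matrix proteoglycan Fmod 33 and 33.9 CPM in macrophage-rich spots against 2.37 and 1.45 CPM in Havcr1-high spots, and the growth factor binding protein Igfbp2 154 and 116 CPM in macrophage-rich spots against 14.2 and 6.69 CPM in Havcr1-high spots. These 5 were higher in both sections, though Retnla rested on few spots, as given above. Igha was the largest rise by the fit but had 160.0 CPM in macrophage-rich against 2.37 CPM in Havcr1-high spots in replicate 1 and 1.94 CPM in macrophage-rich against 1.16 CPM in Havcr1-high spots in replicate 2. The largest falls were those of the fibrinogen chains, which injured tubule cells can make. Fgg had 26.2 and 43.1 CPM in macrophage-rich spots against 385 and 601 CPM in Havcr1-high spots (log2 fold change -3.83), Fga had 21.1 and 33.4 CPM in macrophage-rich spots against 263 and 339 CPM in Havcr1-high spots, and Fgb had -3.66 on the log2 scale. The sulfate transporter Slc13a1 had 129.8 and 130.4 CPM in macrophage-rich spots against 861 and 843 CPM in Havcr1-high spots, and S1 and S2 genes were lower in 8 of 12. All 15 of 15 respiratory genes were lower too (median -0.80).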

How the data were processed

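Visium libraries of 4 kidney sections were given as whole UMI counts for each gene and spot, 1 table per section, as deposited by the authors. The submitters' processing notes name Space Ranger 1.3.1 and the mm10 build. The tables name 32285 genes. Section totals were 53897511 and 57230517 UMIs in Uox_KO and 93524222 and 107962997 UMIs in Control. Replicates of a genotype differed by more than sampling noise. Spot positions were not used here.

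Spots were scored with Python 3.11.15, and counts were summed per section and spot class. Genes with at least 50 UMIs in each whole section were tested with edgeR 4.0.16 in R 4.3.3 (TMM scaling, quasi-likelihood test, section as a block, Benjamini-Hochberg over all genes tested, threshold 0.05), after the test was run on simulated data. With 2 sections a genotype there is 1 residual degree of freedom, 2 in the interaction, and the fit borrows the spread across genes. The p-values thus rest on counting and on how the ratio of the 2 spot classes varied between these sections, pooled over genes. They are not a measured spread of the single gene, and neither are the SE values, which are derived from the same test. Pairing comes from the design: both spot classes of a section are from the same section. Alternatives were DESeq2 1.42.0, total UMIs, other filters, scores and shares of spots, and leaving out sections. Exact Clopper-Pearson intervals cover counting error only.

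Genes were named by rule: the 15 largest rises and falls of at least 20 CPM in the higher class with the same sign in both sections, up to 5 genes per list by smallest p (all tested genes for the macrophage lists, of which the text gives a selection), and the 8 largest changes each way in the other contrasts. Havcr1, Cxcl10 and the further genes of the genotype difference were chosen after their values were seen. The members, lists and motif were chosen with earlier results of these data known. Values of some members of these lists are not reported here.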

Additional observations from a re-analysis of the deposited data

Results flagged for a closer look

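The contrast of macrophage-rich against remaining spots differed between Uox_KO and Control by the interaction test for each of the 16 genes named in that comparison. The log2 difference, Uox_KO minus Control, was 2.38 for Mmp12, 2.20 for Rassf2, 2.05 for Tbxas1, 2.00 for Ccl6, 1.97 for Cd83, 1.92 for Irf5, 1.90 for Frzb and 1.85 for Cfp. It was -3.91 for Thrsp, -3.80 for Retn, -3.73 for Apoc1, -3.49 for Cpt1b, -3.42 for Kcnk3, -3.19 for Fabp4, -3.11 for Cox7a1 and -3.04 for Plin4. These 16 were picked for the size of the difference among genes that passed this test, so that each passed was set by the choice. Among all 256 genes that the rule names in the Uox_KO contrast, 215 could be tested for the difference. Of these, 80 had a higher and 70 a lower signed log2 fold change in Uox_KO than in Control. Over all 12727 genes tested the shares were 9.52% higher and 19.4% lower. The 256 genes were named from the Uox_KO contrast, which is itself a side of this difference, so their counts do not add support.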

How the results depend on the processing

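Counts are given as genes higher and lower. With total UMIs in place of TMM the Uox_KO contrast gave 6873 and 1762, the Control contrast 2646 and 621, the genotype difference 3385 and 1491 and the contrast with Havcr1-high spots 4765 and 1484. The DESeq2 Wald test gave 2099 higher in the Uox_KO contrast, 630 and 607 in Control, 518 and 1592 for the genotype difference, 22 and 14 against collagen-rich spots and 1213 and 1064 against Havcr1-high spots. With the top 2% of spots there were 927 and 858 in Control, 614 higher for the genotype difference and 0 and 0 against collagen-rich spots. With the top 10% there were 2103 higher for the genotype difference and 276 lower against collagen-rich spots. Against collagen-rich spots, edgeR's own filter gave 128 and 57, a minimum of 200 UMIs 57 lower and the other macrophage score 187 lower. A joint fit of all 4 sections gave 937 lower in Control. Without the section as a replicate block there were 3347 and 3309 in the Uox_KO contrast, 814 lower in Control, and 45 and 21 against collagen-rich spots.

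Leaving out 1 section was fitted jointly with the other genotype, so the lone section is assumed to vary like the others. It gave 2531 to 2980 higher and 2788 to 3236 lower in the Uox_KO contrast and 360 to 716 higher and 29 to 197 lower in Control, with the lowest counts without Control replicate 1. The genotype difference gave 547 to 1450 higher and 1826 to 2439 lower, with 699 higher without Control replicate 1 and 547 without Control replicate 2. Against the collagen-rich and Havcr1-high spots this leaves 1 section and no test. Under total UMIs the log2 fold change was 0.065 for Gas6, 0.34 for Maf, 0.23 for Spp1, 0.25 for Ctsl and 0.10 for Lipa. Igha had -0.28 with DESeq2. Spp1 had 0.10 with the other macrophage score. Without fat and urothelium spots Fabp5 had 1.09 and Hp 1.32. Havcr1 had -0.028 with edgeR's own filter, -0.071 with no filter, -0.60 with the top 2%, -0.22 with the linear score, -0.025 with the other score, -0.032 in spots of at least 5000 UMIs and -0.29 without fat and urothelium spots. Leaving out Uox_KO replicate 1 or 2 gave 0.025 and -0.46 for Spp1, -1.40 and 2.40 for Jchain and -3.26 and 2.66 for Igha. The genotype difference of Cd74 was -0.051 with the top 2%, and -0.019 to 0.38 when a section was left out. The cause of these shifts was not tested. The depth of single spots limits genes such as Mmp12, which most macrophage-rich spots lacked.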
